A study of Mus musculus with 4 samples.

Results

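The thioredoxin and peroxiredoxin system was described through 10 named genes, *Txn1*, *Txn2*, *Txnrd1*, *Txnrd2*, *Srxn1*, *Prdx1*, *Prdx3*, *Prdx5*, *Prdx6* and *Txnip*, whose rows were taken from a table of 55450 genes by their listed name. All 10 names occurred once, and all 10 genes passed the filter on low counts. The members were not chosen by a threshold on their values. RNA-seq was performed on WT MLO-Y4, a line of mouse cells used as a model of the osteocyte, in 2 unloaded and 2 loaded cultures. The loaded cells were stretched equiaxially for 12 h at 0.5 Hz and 20% strain from 60% confluency, on a silicone membrane coated with type I collagen. The unloaded cells, also at 60% confluency, stood for 12 h in the incubator of the same tension system, but on ordinary culture plates, so stretch and growth surface cannot be told apart. No label says that the replicates came from separate batches of cells, and p-values measure only the spread between these 4 libraries.

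Thioredoxin reductases pass electrons from NADPH to thioredoxins, small proteins that reduce disulfides in other proteins. Peroxiredoxins break down hydrogen peroxide and are in turn mostly reduced by thioredoxin, and sulfiredoxin restores peroxiredoxins that have been overoxidized. The cytosol and the mitochondria have separate sets of these enzymes, encoded by different genes. The study asked how mechanical loading alters the transcriptome and histone marks of osteocytes and their oxidative balance. The transcription factor NRF2 is a known activator of antioxidant genes, and its textbook target genes include *Txnrd1*, *Srxn1* and *Prdx1*. This is not a full list, and which of the other members are NRF2 targets was not assessed.

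Total counts per library ranged from 28941994 to 32185693, and the 10 members held between 0.187% and 0.212% of them. The chi-square per degree of freedom was 17.6 and 19.1 between replicates and 26.8 to 30.5 between libraries of different groups. No library was thus a copy of another, but whether replicates were repeats of the same RNA cannot be told from this value. For counting noise alone the chi-square per degree of freedom is 1 in plain read counts, whereas the counts here were rebuilt from coverage. Of 7 osteocyte markers, *Mepe* had no count in any library and *Sost* had at most 4 counts, *Dmp1* had 12 to 14 counts and *Fgf23* at most 9, and *Phex*, *Pdpn* and *Gja1* were expressed in every library. Levels are given as CPM, the usual counts-per-library-size unit, after TMM scaling (trimmed mean of M values, which evens out composition between libraries). The summed level of the osteocyte list was 687.5 and 689 CPM in unloaded and 847.5 and 770 CPM in loaded libraries, with *Pdpn* at 143 and 151 against 215 and 228 CPM, and its part in the results below was not tested. The summed level of 5 macrophage markers was between 1562 and 1590 CPM, nearly all of it *Csf1r*, with *Ptprc* and *Adgre1* at 4 counts or fewer and *Cd68* at 5.58 and 4.65 CPM unloaded and 3.07 and 2.82 CPM loaded. The summed level of 6 osteoblast markers was between 989 and 1081 CPM, most of it *Col1a1*. The osteoclast list summed to 5.13 and 4.85 CPM unloaded and 8.09 and 7.55 CPM loaded, nearly all of it *Ctsk*, and its part in the results was not tested. The adipocyte and endothelial lists were at most 9.29 CPM. In these bulk libraries, fewer cells of a type and less RNA per cell cannot be told apart.

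Loaded cells had higher levels of *Txnrd1* and *Srxn1*, the reductase and the repair enzyme of the cytosol, in both libraries, by 0.43 and 0.36 on the log2 scale, but no member passed the test after adjustment. In edgeR's quasi-likelihood test, which weighs the difference in counts against the spread between replicates and is adjusted over all genes by Benjamini-Hochberg, 0 members passed the study's threshold of an adjusted p under 0.01, where 16 of 16269 tested genes did (0.0983%). At an adjusted p under 0.05 it was also 0 members, where 0.904% of tested genes passed, and 0.338% of tested genes passed with higher levels in loaded cells. That count rests on the setting, since *Txnrd1* had an adjusted p of 0.0398 with limma-voom, and in edgeR 0.0474 with upper-quartile factors and 0.0408 with at least 10 counts in every library. Without adjustment, 2 members, *Txnrd1* and *Srxn1*, had a p under 0.05, against 14.3% of all tested genes. Both were higher in loaded cells, against 6.88% of tested genes in that direction. In the other direction, lower in loaded cells, there was no member with an unadjusted p under 0.05, against 7.46% of tested genes. In the Wald test of DESeq2, the tool of the study, these 2 members passed an adjusted p of 0.01, as did 2.85% of the genes it gave an adjusted p, 1.34% with higher levels under loading. The log2 fold change was positive for 7 members and negative for 3, with a median of 0.12, whereas 48.5% of all tested genes had a positive value and their median was -0.01. Levels are given below for unloaded replicates 1 and 2 and then for loaded replicates 1 and 2.

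**Figure D1:**
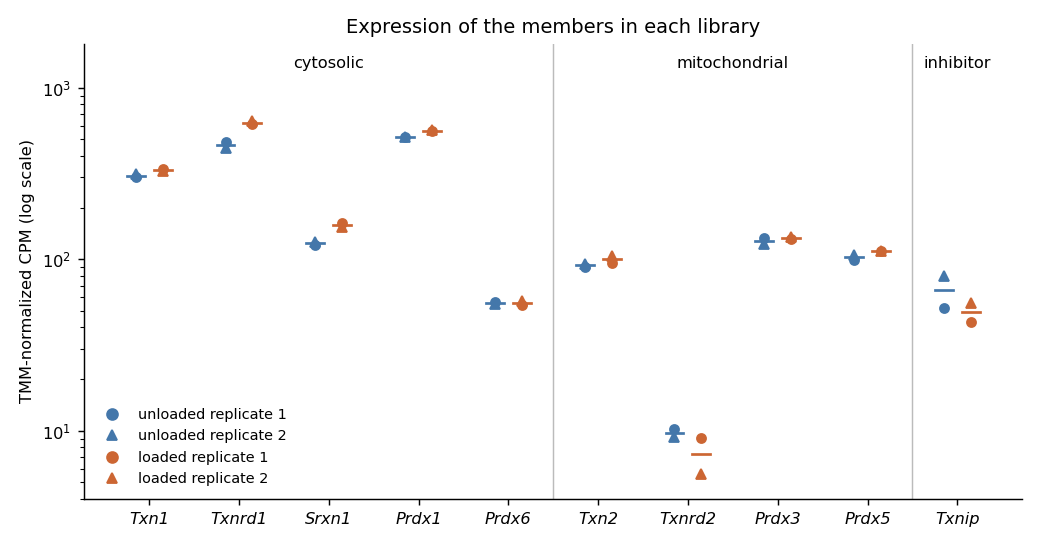
Normalized expression (CPM, log scale) of the 10 genes in each of the 4 libraries, with circles for replicate 1, triangles for replicate 2 and a bar for the mean of the group. On the log axis the groups lie apart by the widest margins in *Txnrd1*, between 448 and 483 CPM in unloaded and 612 and 639 CPM in loaded libraries, and in *Srxn1*, while *Txnip* and *Txnrd2* show replicates that lie far apart.

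*Txnrd1* (ENSMUSG00000020250.10) encodes the cytosolic thioredoxin reductase, a selenoprotein (GRCm38, chromosome 10, 82833951 to 82897712, plus strand). Its counts were 14030 and 13575 in unloaded libraries and 19739 and 19043 in loaded libraries. Its expression was 483 and 448 CPM unloaded and 612 and 639 CPM loaded, so both loaded libraries lay above both unloaded libraries. The loaded mean of 625 ± 19.2 CPM was 34.3% above the unloaded mean of 465.5 ± 24.9 CPM (SD, n = 2 per group). This is a log2 fold change of 0.43 (standard error 0.0633, 95% confidence interval 0.27 to 0.58), with an edgeR quasi-likelihood adjusted p = 0.0516 over all tested genes. Ordered by p, *Txnrd1* stood at place 155 of 16269. The adjusted p was 7.2e-06 with DESeq2 and 0.00456 with the exact test of edgeR. When the edgeR fit took same-numbered libraries as pairs (a replicate block), it was 0.168. Leaving out 1 library at a time gave log2 fold changes between 0.37 and 0.49, with edgeR adjusted p from 0.0556 to 0.163.

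*Srxn1* (ENSMUSG00000032802.8) encodes sulfiredoxin, the enzyme that repairs overoxidized peroxiredoxins (chromosome 2, 152105516 to 152111376, plus strand). Its expression was 122 and 126 CPM unloaded and 162 and 155 CPM loaded. The groups did not overlap, and the mean was 124 ± 2.88 CPM against 158 ± 5.09 CPM (SD, n = 2 per group), a difference of 28.0%. On the log2 scale the change was 0.36 (standard error 0.069, 95% confidence interval 0.19 to 0.52), with an edgeR quasi-likelihood adjusted p = 0.102, a DESeq2 adjusted p = 0.00711 and an edgeR adjusted p = 0.246 with the block. It ranged from 0.33 to 0.39 without each library in turn.

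Among all tested genes, 90.2% had a lower log2 fold change than *Txnrd1* and 87.6% a lower one than *Srxn1*. Both values lay inside the central 90% of tested genes, which ran from -0.79 to 0.68.

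*Prdx1* (ENSMUSG00000028691.12, chromosome 4, 116685544 to 116700822, plus strand), a cytosolic peroxiredoxin, had 516 and 514 CPM unloaded and 557 and 565 CPM loaded. The groups did not overlap, at 515 ± 1.54 against 561 ± 5.24 CPM (SD, n = 2 per group), and the difference of 8.87% was larger than the spread between replicates. Its log2 fold change was 0.12 (95% confidence interval -0.0049 to 0.25, edgeR adjusted p = 0.363). *Txn1* (ENSMUSG00000028367.5, chromosome 4, 57943373 to 57956411, minus strand), which encodes cytosolic thioredoxin, had 300.4 and 312 CPM unloaded and 334 and 329 CPM loaded. Both loaded libraries were again the higher ones, with a log2 fold change of 0.11 (95% confidence interval -0.03 to 0.26, edgeR adjusted p = 0.446). *Prdx6* (ENSMUSG00000026701.15, chromosome 1, 161240112 to 161251219, minus strand), a peroxiredoxin that is reduced by glutathione rather than thioredoxin, had 56.2 and 55.1 CPM unloaded and 54.3 and 56.9 CPM loaded. Its groups overlapped, and the 95% confidence interval of its log2 fold change was -0.23 to 0.22 (edgeR adjusted p = 0.996).

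The sequences before the transcription start are shown for *Txnrd1*, *Srxn1* and *Prdx1*, the 3 members with the smallest p, and for *Txnrd2*, the mitochondrial counterpart of *Txnrd1*. For *Txnrd1* the stretch shown is that of the second of its 3 starts, the only one with a match. That stretch lies inside the gene span given above. They come from the RefSeq promoter table (GRCm38.p6), 5′ to 3′ on the strand of the gene, limited to bases outside the annotated exons of the gene. Capitals mark the letters TGACNNNGC, the core of the antioxidant response element to which NRF2 binds, and TGANTCA, the AP-1 site, on either strand, or TGANTCAGC, a fuller element of NRF2 with its small MAF partners that holds an AP-1 site within it.
Txnrd1, chr10:82858956-82859178 (plus strand): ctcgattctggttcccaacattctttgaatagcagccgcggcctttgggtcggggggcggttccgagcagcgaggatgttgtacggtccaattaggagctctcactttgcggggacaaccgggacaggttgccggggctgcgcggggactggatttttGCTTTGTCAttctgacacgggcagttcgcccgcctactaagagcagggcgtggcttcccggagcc
Srxn1, chr2:152105274-152105515 (plus strand): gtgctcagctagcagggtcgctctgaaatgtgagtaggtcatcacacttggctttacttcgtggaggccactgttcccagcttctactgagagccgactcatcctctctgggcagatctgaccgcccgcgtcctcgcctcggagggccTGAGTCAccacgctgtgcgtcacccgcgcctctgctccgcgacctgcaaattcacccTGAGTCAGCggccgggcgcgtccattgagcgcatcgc
Prdx1, chr4:116685349-116685543 (plus strand): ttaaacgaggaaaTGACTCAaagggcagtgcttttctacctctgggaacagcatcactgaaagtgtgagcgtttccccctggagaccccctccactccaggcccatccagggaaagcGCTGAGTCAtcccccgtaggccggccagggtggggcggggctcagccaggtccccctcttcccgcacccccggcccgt
Txnrd2, chr16:18426167-18426383 (plus strand): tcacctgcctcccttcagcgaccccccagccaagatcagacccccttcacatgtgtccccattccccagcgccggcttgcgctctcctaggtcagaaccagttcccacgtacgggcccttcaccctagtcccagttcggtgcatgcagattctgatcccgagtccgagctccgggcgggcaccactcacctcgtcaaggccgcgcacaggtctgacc

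The promoter table held 11 promoters of 9 members, from 250 bases before to 50 bases after the RefSeq start, and none for *Prdx6*. TGACNNNGC was found in 3 of these 11 promoters, against 12.4% of all 32851 promoters in the table and 14.3% of those of tested genes. One lay 92 bases before the second of 3 starts of *Txnrd1* as TGACAAAGC on the reverse strand, one 133 bases before the start of *Prdx1* as TGACTCAGC on the reverse strand, and one 28 bases after the start of *Srxn1* as TGACCTAGC on the reverse strand, which is outside the printed stretch. TGANTCA was found in 2 of the 11 promoters, those of *Srxn1* and *Prdx1* with 2 sites each. The share was 7.81% of all promoters and 5.7% of those of tested genes. One of the *Prdx1* sites overlaps its TGACNNNGC match. TGANTCAGC, which was added after the sequences were seen, was found in the same 2 promoters, 45 bases before the start of *Srxn1* and at the *Prdx1* site. The share was 1.19% of all promoters and 1.21% of those of tested genes. Since this pattern was added with these promoters in view, the comparison with those shares adds no support. None of the 3 patterns was found in the promoters of *Txn1*, *Txn2*, *Txnrd2*, *Prdx3*, *Prdx5* and *Txnip*, nor at the first and last of the 3 starts of *Txnrd1*. These are matches of letters within a short window and are not measured binding.

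Of the mitochondrial members, 0 had an unadjusted p under 0.05, and 2 had both loaded libraries above both unloaded ones with TMM, RLE and upper-quartile factors, an order that 22.1% of all tested genes had with TMM. *Txn2* (ENSMUSG00000005354.16, chromosome 15, 77915047 to 77929006, minus strand) encodes mitochondrial thioredoxin and had 90.1 and 93.9 CPM unloaded and 95.1 and 105 CPM loaded. The groups did not overlap, by a margin smaller than either group's own spread, and the log2 fold change was 0.12 (95% confidence interval -0.09 to 0.33, edgeR adjusted p = 0.585). *Prdx5* (ENSMUSG00000024953.17, chromosome 19, 6906697 to 6910106, minus strand), whose protein is found in mitochondria, peroxisomes and cytosol, had 99.0 and 106 CPM unloaded and 112 and 111 CPM loaded, without overlap. Its log2 fold change was 0.12 (95% confidence interval -0.06 to 0.31, edgeR adjusted p = 0.524). Of its merged exons, 19.1% are shared with *Trmt112* on the opposite strand, which had between 2254 and 2750 counts, and the strandedness of the counting is not stated.

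*Prdx3* (ENSMUSG00000024997.7, chromosome 19, 60864051 to 60874556, minus strand), the mitochondrial peroxiredoxin, had 134 and 123 CPM unloaded and 132 and 134 CPM loaded, so the groups overlapped. It had a log2 fold change of 0.05 (95% confidence interval -0.13 to 0.24, edgeR adjusted p = 0.811), and without unloaded replicate 2 it was -0.01. *Txnrd2* (ENSMUSG00000075704.16, chromosome 16, 18426384 to 18479073, plus strand), the mitochondrial thioredoxin reductase, had the fewest counts, with 298 and 277 counts unloaded and 294 and 166 counts loaded. Its expression was 10.3 and 9.14 CPM unloaded and 9.11 and 5.57 CPM loaded, and loaded replicate 2 alone stood apart. Its change was -0.40 on the log2 scale (95% confidence interval -1.04 to 0.24, edgeR adjusted p = 0.552), and it was -0.09 without loaded replicate 2. Taken as plain read counts, its values had a counting error of up to 7.76% in a library, against at most 1.96% for *Txn2* and 0.858% for *Txnrd1*.

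*Txnip* (ENSMUSG00000038393.14, chromosome 3, 96557957 to 96561883, plus strand) encodes an arrestin-domain protein that binds reduced thioredoxin and inhibits it. It had 52.2 and 80.1 CPM unloaded and 43.3 and 55.7 CPM loaded, and the replicates of both groups differed more than those of the other members with comparable counts. The lower unloaded library lay below the higher loaded library, so the groups overlapped. The change was -0.42 on the log2 scale (standard error 0.223, 95% confidence interval -0.96 to 0.13, edgeR adjusted p = 0.46). Without unloaded replicate 2 it was -0.08, and without unloaded replicate 1 it was -0.69. An antisense gene, *Gm15441*, shares 19.4% of the merged exons of *Txnip* and had between 0 and 20 counts.

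**Figure D2:**
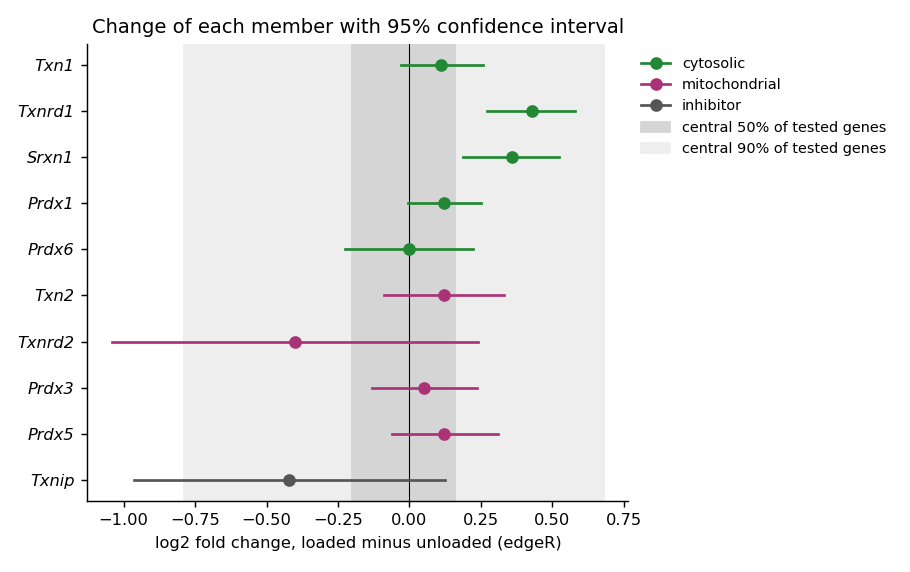
Log2 fold change (loaded minus unloaded, edgeR) of each gene with its 95% confidence interval, over the central 50% (dark band) and central 90% (light band) of all tested genes. The intervals of *Txnrd1* (0.27 to 0.58) and *Srxn1* (0.19 to 0.52) are the ones that do not include 0, and those of *Txnrd2* and *Txnip* are the widest.

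Of the members, 6 had both loaded libraries above both unloaded ones: *Txn1*, *Txn2*, *Txnrd1*, *Srxn1*, *Prdx1* and *Prdx5*. Of all tested genes, 22.1% had this order. These 6 genes were the same with RLE and with upper-quartile factors. *Txnrd2* had both loaded libraries below with TMM factors, where 24.5% of tested genes had that order, but overlapped with the other scalings.

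The cytosolic and mitochondrial arms were contrasted in each library as sums of CPM, not scaled for gene length. The summed expression of the 5 cytosolic members was 1478 and 1455 CPM in unloaded and 1719 and 1744 CPM in loaded libraries. For the 4 mitochondrial members it was 333 and 332 CPM unloaded and 348 and 356 CPM loaded. The ratio of the sums was 4.44 and 4.38 unloaded and 4.94 and 4.90 loaded, so it was higher in both loaded libraries. *Txnrd1* alone made up 59.6% of the difference in the sum over all 10 members, which was 1865 CPM unloaded and 2133 CPM loaded on average. Without *Txnrd1* the ratio was 2.99 and 3.04 unloaded and 3.18 and 3.10 loaded. The groups did not overlap, by a margin smaller than the distance between the loaded replicates, and *Srxn1* was still in the cytosolic sum. How often sums of other genes give such an order was not computed.

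The arms were also compared gene by gene. On the log2 CPM scale the median change was 0.12 over the cytosolic and 0.09 over the mitochondrial members, a difference of 0.04 before rounding. Taken library by library, the median over the cytosolic members minus that over the mitochondrial members, each gene relative to its unloaded mean, was -0.01 and 0.01 unloaded and 0.08 and 0.04 loaded, with a pooled SD of 0.0247 between replicates. With *Prdx5* left out the difference of the medians was 0.07, and it ranged from 0.04 to 0.08 without each library in turn. No p is given for this difference, since the members were chosen with results known.

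Each cytosolic gene was also set against its mitochondrial partner within the same library, a ratio in which the scaling of the library cancels except for the small prior count. The log2 ratio of *Txnrd1* to *Txnrd2* was 5.55 and 5.60 unloaded and 6.06 and 6.83 loaded, a difference of 0.87 between the group means. The loaded replicates lay further apart than the unloaded ones, and the difference was 0.48 without loaded replicate 2 and 1.25 without loaded replicate 1. For *Txn1* to *Txn2* the log2 ratio was 1.74 and 1.73 unloaded and 1.81 and 1.65 loaded, so the unloaded libraries lay between the loaded ones. For *Prdx1* to *Prdx3* it was 1.95 and 2.06 unloaded and 2.08 and 2.07 loaded, without overlap but closer together than the unloaded replicates were. In an exact two-sided permutation test the p was 0.333 for the reductases, 1 for the thioredoxins and 0.333 for the peroxiredoxins, and 0.333 is the smallest value that 2 against 2 libraries allow.

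**Figure D3:**
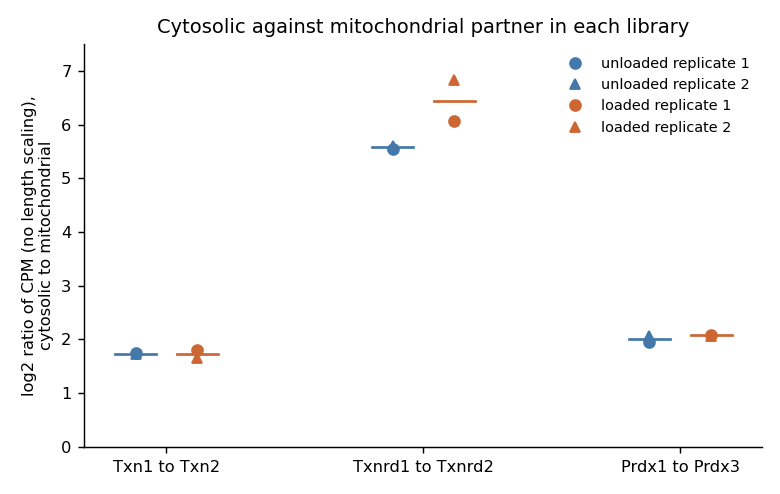
Log2 ratio of CPM, not scaled for gene length, between the cytosolic and the mitochondrial gene of each pair in the 4 libraries, with a bar for the mean of the group. The reductase pair is the one whose loaded libraries (6.06 and 6.83) lie clearly above the unloaded ones (5.55 and 5.60), with loaded replicate 2 far above loaded replicate 1.

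Ratios between an enzyme and its substrate were added after the data were seen. Per count of *Txn1* there were 1.61 and 1.44 counts of *Txnrd1* in unloaded and 1.83 and 1.94 in loaded libraries, so the ratio was higher in both loaded cultures. Per count of *Prdx1* there were 0.236 and 0.245 counts of *Srxn1* unloaded and 0.291 and 0.274 loaded. Per count of *Prdx3*, *Srxn1* had 0.912 and 1.02 counts unloaded and 1.23 and 1.15 loaded. Both ratios of the repair enzyme to a peroxiredoxin were thus higher in the loaded libraries. Without each library in turn, the log2 difference ranged from 0.23 to 0.39 for *Txnrd1* to *Txn1*, from 0.19 to 0.28 for *Srxn1* to *Prdx1* and from 0.22 to 0.38 for *Srxn1* to *Prdx3*. Per count of *Txn2*, *Txnrd2* had 0.114 and 0.0974 counts unloaded and 0.0959 and 0.0531 loaded, and the log2 difference ranged from -0.99 to -0.14. Per count of *Txn1*, the inhibitor *Txnip* had 0.174 and 0.257 counts unloaded and 0.130 and 0.170 loaded, a log2 difference that ranged from -0.79 to -0.23. These groups did not overlap, those of *Txnrd2* to *Txn2* and *Txnip* to *Txn1* by narrow margins, and each exact permutation p was 0.333. The genes set on top, *Txnrd1*, *Srxn1*, *Txnrd2* and *Txnip*, were already the members with the largest changes, so the separation of the ratios adds no support. Of single tested genes, 22.1% had both loaded libraries above both unloaded ones and 24.5% had both below. No such share was computed for ratios of other genes.

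Levels of different genes were compared as CPM per kilobase of merged exons. In unloaded cells the order of the mean levels was *Txn1* (291), *Prdx1* (169), *Prdx3* (86.8), *Txnrd1* (65.7), *Prdx5* (47.9), *Srxn1* (43.9), *Txn2* (21.9), *Txnip* (21.2), *Prdx6* (11.6) and *Txnrd2* (2.2). The libraries of *Txn2* and *Txnip* overlapped, at 21.4 and 22.3 against 16.7 and 25.6 CPM per kilobase, and the other neighbours did not. In loaded cells *Txnrd1* reached 86.3 and 90.2 CPM per kilobase and overlapped with *Prdx3*, at 89.0 and 91.0. *Srxn1* lay below *Prdx5* in both unloaded libraries, at 43.2 and 44.6 against 46.3 and 49.5, and above it in both loaded libraries, at 57.4 and 54.9 against 52.5 and 51.9. This order rests on the annotated exon lengths, which need not be the lengths of the transcripts used in these cells.

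A search of all annotated transcripts found 3 processed pseudogenes of *Prdx1* and 1 of *Txn1* at 90% identity or more over at least 150 bases. Their largest count in a library was 10 for a copy of *Prdx1*, 0.0667% of the count of *Prdx1* there, and 3 for the copy of *Txn1*. No such copy was found for the other 8 members.

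A wider list of 58 redox genes was read out from the same fit, of which 54 were tested. It held relatives of the members, other peroxide and superoxide enzymes, clients of thioredoxin and factors upstream of *Txnip* or of selenoproteins. Their log2 fold change was positive for 16 and negative for 38, with a median of -0.05. None passed an adjusted p of 0.01 in edgeR's quasi-likelihood test, 5 had an unadjusted p under 0.05 with higher and 2 with lower levels (6.88% and 7.46% of all tested genes), and DESeq2 passed 2, *Sesn3* and *Sephs2*. *Sesn3*, one of the sestrins, stress-induced proteins that restrain mTORC1 signaling, was the one gene lower at an adjusted p of 0.05. It fell from 55.1 and 49.4 CPM unloaded to 29.5 and 31.9 CPM loaded, which is -0.77 on the log2 scale, with a standard error of 0.107 and an edgeR adjusted p = 0.0429 (0.108 with the replicate block). *Sesn1* and *Sesn2* had log2 fold changes of -0.18 and -0.11 (edgeR adjusted p = 0.556 and 0.641).

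*Sephs2*, which makes the selenium donor that selenoproteins such as the thioredoxin reductases need, had 79.6 and 72.8 CPM unloaded and 108 and 103 CPM loaded. Its change was 0.47 on the log2 scale (edgeR adjusted p = 0.0935, DESeq2 adjusted p = 0.00131). The other 6 genes of selenocysteine insertion had log2 fold changes between -0.13 and 0.08. *Cat*, the peroxisomal catalase that breaks down hydrogen peroxide without thioredoxin, had 105 and 114 CPM unloaded and 135 and 148 CPM loaded (log2 fold change 0.37, edgeR adjusted p = 0.138). For *Sod1*, the cytosolic superoxide dismutase, the log2 value was 0.18 (edgeR adjusted p = 0.295), and for *Apex1*, a nuclear protein that thioredoxin reduces, it was 0.33 (edgeR adjusted p = 0.154). *Sephs2*, *Cat*, *Sod1* and *Apex1*, which are named for their small p, had both loaded libraries above both unloaded ones, as 22.1% of all tested genes did. Over the wider list 9 genes had this order and 14 had the opposite one, which 24.5% of all tested genes had.

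*Txnrd3*, the third thioredoxin reductase gene, had 10.9 ± 2.38 CPM unloaded and 14.9 ± 0.263 CPM loaded (SD, n = 2 per group), without overlap (0.44 on the log2 scale, edgeR adjusted p = 0.359). The peroxiredoxins *Prdx2* of the cytosol and *Prdx4* of the endoplasmic reticulum had log2 fold changes of -0.06 and -0.02, with overlapping groups, and *Prdx6b* had no count in any library. *Glrx5*, a mitochondrial glutaredoxin of iron-sulfur cluster assembly, had a value of 0.26 on the log2 scale (edgeR adjusted p = 0.346). *Tmx4*, a membrane protein with a thioredoxin fold, had -0.25 (edgeR adjusted p = 0.311), and *Txndc5*, one of the endoplasmic reticulum, had -0.46 with overlapping groups (edgeR adjusted p = 0.45). *Rrm1*, the large subunit of ribonucleotide reductase, an enzyme that thioredoxin can reduce, had -0.12 (edgeR adjusted p = 0.387). *Map3k5*, a kinase that reduced thioredoxin holds inactive, had -0.55 (edgeR adjusted p = 0.445).

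*Arrdc2*, an arrestin-domain relative of *Txnip*, had both loaded libraries below both unloaded ones, at -0.44 on the log2 scale (edgeR adjusted p = 0.367). The 5 other tested relatives and upstream factors of *Txnip* had values from -0.20 up to 0, none with an unadjusted p under 0.05. Of these, *Arrdc4*, at -0.20, also had both loaded libraries below. Of all tested genes, 24.5% had this order. *Mlxipl*, which encodes a glucose-responsive activator of *Txnip*, had no count in any library, which allows up to 3 counts. *Msrb2*, a mitochondrial methionine sulfoxide reductase gene, likewise had no count. Of the 4 tested glutathione peroxidase genes, 3 had negative values, between -0.12 and -0.10, and *Gpx1* had 0.09.

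**Figure D4:**
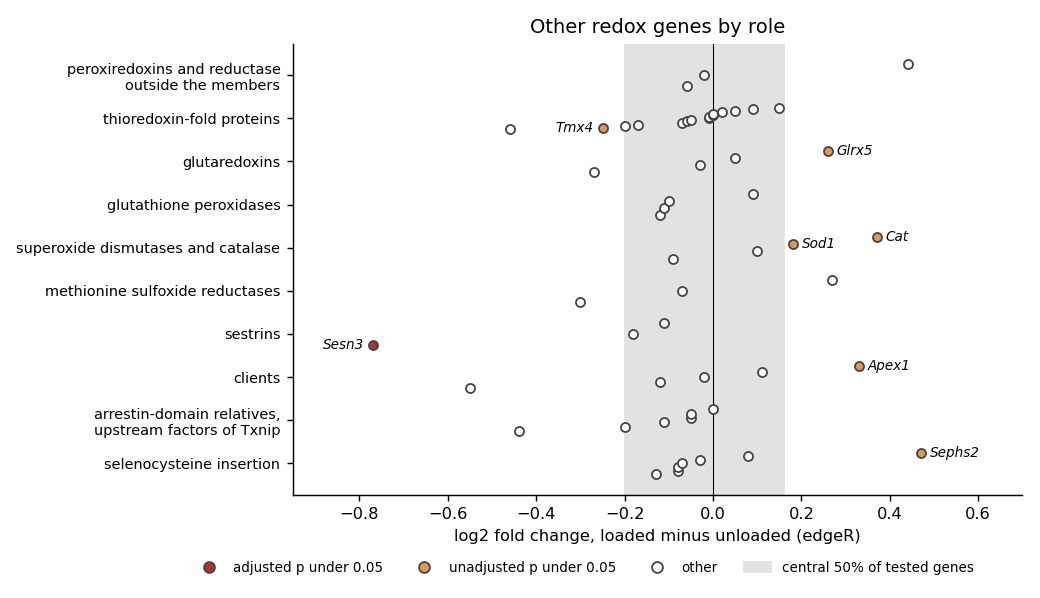
Log2 fold change (loaded minus unloaded, edgeR) of the 54 tested genes of the wider list, 1 point a gene, grouped by role over the central 50% of all tested genes. *Sesn3* at -0.77 is the point with an adjusted p under 0.05, and the named genes in orange have an unadjusted p under 0.05.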

How the data were processed

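RNA-seq libraries of 2 unloaded and 2 loaded MLO-Y4 cultures were used, grouped by sample title. After ribosomal RNA removal, the authors cleaned the reads, mapped them to mm10 with HISAT2 2.1.0, assembled transcripts with StringTie 1.3.5, and deposited raw counts per gene made with prepDE. These are assembled coverage turned back into whole numbers, without normalization. The annotation release, read length and strandedness are not given in the sources used here. All gene identifiers, versions included, were found in GENCODE M21 (GRCm38), which gave coordinates and merged exon lengths.

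Genes were filtered with filterByExpr (count minimum 10, 16269 kept), scaled by TMM and fitted in edgeR 4.0.16 (R 4.3.3), whose quasi-likelihood test was adjusted by Benjamini-Hochberg over the 16269 genes, at the study's threshold of 0.01. The standard error is the size of the log2 fold change divided by the square root of F, and the 95% confidence interval uses the t distribution with the total degrees of freedom of the fit. Log2 CPM used a prior count of 2. A count of 0 allows up to 3 counts, and this floor covers counting error only. Alternatives were DESeq2 1.42.0 (the study's tool, on all genes with a count), limma-voom (limma 3.58.1), the exact test of edgeR, other scaling factors and filters, the replicate number as a block, an adjusted p under 0.05, and each library left out. Transcripts were compared with BLAST 2.17.0. The procedure was run on simulated data, where it called 105 of 200 changed genes. At a log2 change of 0.5 it called 4 of 50. The changed genes were drawn at random from all tested genes, so this is not the rate for genes with the counts of the members. In the edgeR fit of the 4 libraries, 0 members had an absolute log2 fold change above 0.5.

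The members and lists were chosen with earlier results of these data known. All members are named. Of the wider list, 12 genes are named by smallest p, and other genes of it were named after their values were seen.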

Additional observations from a re-analysis of the deposited data

How the results depend on the processing

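At an adjusted p under 0.01, 16 genes passed in edgeR's quasi-likelihood test. The count was 361 with DESeq2, 279 with edgeR's exact test, 29 with at least 10 counts in every library, 0 with no filter on low counts (2435 genes at an unadjusted p under 0.05), and 147 at an adjusted p under 0.05. It ranged from 0 to 58 without each library in turn, and was 0 without loaded replicate 1 or 2 (2225 and 2086 genes at an unadjusted p under 0.05), where the lone library is assumed to vary like the other group. With the replicate number as a block it was 0 (1839 genes at an unadjusted p under 0.05). No member was called without the block either, so the block could take away no call of a member. Same-numbered libraries share only a number, with a correlation of deviations of -0.0846. Of the members, 2 passed with DESeq2 and 1 with edgeR's exact test, and 0 in the other alternatives run. Of the wider list, 2 passed with DESeq2, 1 with the exact test and 1 at an adjusted p under 0.05. *Prdx6* had no fixed direction, with log2 fold changes of 0.01 with DESeq2 and RLE factors, 0.00 with at least 10 counts in every library, and -0.04 to 0.03 without each library in turn. *Prdx3* ranged from -0.01 to 0.12 without each library, and the other 8 members kept their direction in all 12 alternatives run. The cytosolic minus mitochondrial difference moved from 0.04 to 0.07 with *Prdx5* left out, and lay between 0.04 and 0.08 without each library. The causes were not tested. The count of *Txnrd2*, at most 298 in a library, and 2 replicates per group limit the precision.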
